A study of Mus musculus with 20 samples.

Results

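The 5 genes described here are Gm42418, Gm26917, Lars2, mt-Rnr1 and mt-Rnr2, out of 25190 genes counted in bulk RNA of the mouse hippocampus. They were selected on results of these same libraries, as genes whose reads resemble ribosomal RNA (rRNA), and were taken from the count table by gene name. All 5 had a row. Gm42418, Gm26917 and Lars2 are 3 genes of the nuclear genome, and mt-Rnr1 and mt-Rnr2 are the 2 rRNA genes of the mitochondrial genome. The files hold counts and not reads, so the sequence of the reads counted for a gene was not examined here.

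RNA was sequenced from 20 wild-type male C57BL/6JOlaHsd mice, aged 4 months per the labels, with 5 mice in each of 4 groups. Every mouse carried bilateral cannulas in the dorsal hippocampus and received 2 infusions of 2 µL, 48 hours apart. Vehicle mice received artificial cerebrospinal fluid without RNA. Control mice received small RNAs (sRNAs) pooled from the post-mortem hippocampus of 9 individuals without psychiatric illness. For Pool 1 and for Pool 2 the infused sRNAs came from 10 patients with schizophrenia each, with different patients in each pool. The paper distributed its patients over both pools so that disease severity and RNA quality were comparable. The sRNA pools were infused at 0.24 µg/µL and tissue was taken 24 hours after the last behavioural test. Each group given sRNAs thus rested on 1 pool of material, so its mice are replicates of the infusion and not of the human donors. The libraries were selected for poly(A) RNA, kept strand information and were read from 1 end over 50 nt. Total counts ranged from 20588280 to 25543939 per library, and the ranges of the 4 groups overlapped (20588280 to 25142848 in Vehicle, 21928988 to 25543939 in Control, 21351170 to 25314679 in Pool 1 and 21562625 to 25100519 in Pool 2). At this depth 3 counts, taken as the floor, correspond to 0.117 to 0.146 CPM (counts scaled to a library of 1000000 counts), which covers counting error only.

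Ribosomal RNA makes up most of the RNA of a cell. In the nucleus, RNA polymerase I transcribes tandem copies of a long precursor that is cut into most of the rRNAs of the cytosolic ribosome. These rRNAs carry no long poly(A) tail. Mitochondria transcribe their own pair of rRNAs from the mitochondrial genome, with a separate polymerase, and add short poly(A) stretches to their transcripts. A poly(A)-selected library holds nuclear rRNA only as far as that RNA passes the selection. Lars2 encodes the leucyl-tRNA synthetase of mitochondria, an enzyme that charges a transfer RNA and is not itself a ribosomal RNA.

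The positions are those of GRCm38 and were the same in the deposited table and in GENCODE release 21. Gm26917 (chromosome 17, 39843013 to 39846341, plus strand, 3329 exonic bases) and Gm42418 (chromosome 17, 39846958 to 39848788, plus strand, 1831 bases) are annotated as long non-coding RNAs and lie 616 bases apart on the same strand. The annotated rRNA gene CT010467.1 (39846353 to 39848827) lies on the minus strand and covers 100% of Gm42418. A further long non-coding RNA on the minus strand, AY036118, covers 50.4% of it. The annotation thus places all of Gm42418 opposite an entry labelled rRNA, with Gm26917 beside it. Which strand holds the sequence of the mature rRNA was not examined, so Gm42418 is not shown to be antisense to rRNA. Lars2 (chromosome 9, 123366927 to 123462666, plus strand) is a protein-coding gene with 11089 exonic bases over 9 transcripts. The mitochondrial genes mt-Rnr1 (positions 70 to 1024 of the mitochondrial chromosome, 955 bases) and mt-Rnr2 (1094 to 2675, 1582 bases) encode the rRNAs of the small and the large subunit of the mitochondrial ribosome.

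**Figure D1:**
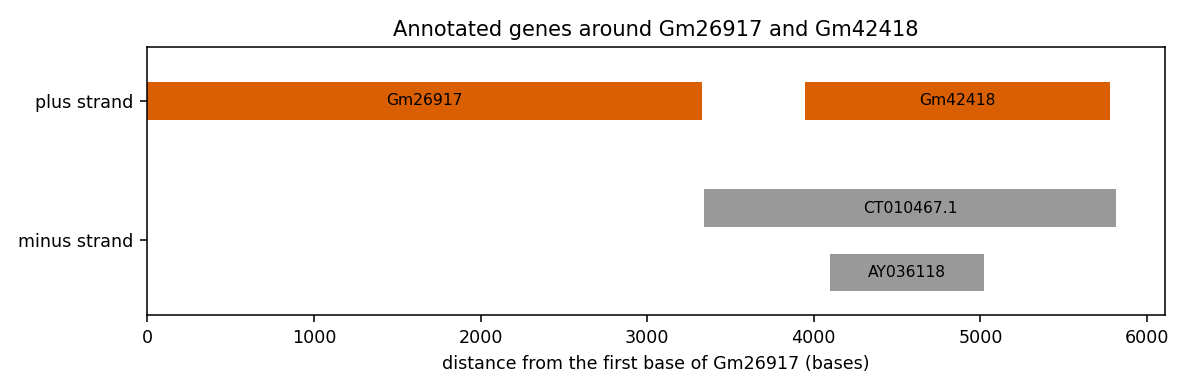
Map of the annotated genes around Gm26917 and Gm42418, with the distance from the first base of Gm26917 in bases on the horizontal axis and the 2 strands on the vertical axis. Orange bars are genes on the plus strand and grey bars are genes on the minus strand. Gm42418 lies entirely opposite CT010467.1, which is annotated as an rRNA gene, and begins 616 bases past the end of Gm26917.

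Because the libraries were selected for poly(A), a run of A of the greatest length within each rRNA-like gene is shown in capitals. The bases around it are on the plus strand of GRCm38, from GENCODE transcripts. The mt-Rnr1 window holds another run of the same length, in lower case. The windows are chr17:39847110-39847229, chr17:39845079-39845198, chrM:648-767 and chrM:1431-1550.
Gm42418: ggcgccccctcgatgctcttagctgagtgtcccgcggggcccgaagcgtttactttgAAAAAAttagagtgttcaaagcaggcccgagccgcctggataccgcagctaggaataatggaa
Gm26917: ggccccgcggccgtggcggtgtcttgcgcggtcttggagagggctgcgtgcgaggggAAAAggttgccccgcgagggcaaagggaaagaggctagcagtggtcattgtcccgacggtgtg
mt-Rnr1: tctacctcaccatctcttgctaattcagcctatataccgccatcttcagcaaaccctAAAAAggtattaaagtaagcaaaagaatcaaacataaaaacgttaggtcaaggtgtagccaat
mt-Rnr2: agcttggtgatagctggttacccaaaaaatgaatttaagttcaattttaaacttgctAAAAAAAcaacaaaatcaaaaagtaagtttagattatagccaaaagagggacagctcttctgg

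The longest run of A was 6 bases in Gm42418, 4 in Gm26917, 5 in mt-Rnr1 and 7 in mt-Rnr2. Whether such runs have a part in the poly(A) selection was not tested. The nuclear and mitochondrial genes differed in base composition. Gm42418 had 17.7% A and 60.2% GC, and Gm26917 had 8.26% A and 69.1% GC, against medians of 26.1% A and 49.2% GC over 141767 annotated transcripts. The mitochondrial genes lay on the other side, with 37.8% A and 35.8% GC in mt-Rnr1 and 38.2% A and 35.4% GC in mt-Rnr2. The Lars2 transcript of 3894 bases was near the medians, with 26.2% A and 51.2% GC.

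No stretch of 50 bases, the length of a read, was shared between any pair of the 5 genes, so a perfectly matching read of full length could belong to only 1 of them. Of the 50-base words of Gm42418, 94.9% occurred in reverse in CT010467.1 or AY036118. Of those of mt-Rnr2, 16 of 1533 also occurred in Gm20594, and of those of Lars2, 22 of 11217 occurred in other genes, Gm15564 among them. The likeness of Lars2 to Gm15564, a long non-coding RNA on chromosome 16, lies in the 3′ untranslated region. Bases 3278 to 3349 of that Lars2 transcript, past the last coding base at 2908, were 98.6% identical to a Gm15564 transcript over 72 bases, with 1 mismatch. A window of 30 bases around that mismatch (capital) is shown, which for Lars2 is chr9:123462085-123462114.
Lars2: ggaacgtgagctgggAttagaccgtcgtga
Gm15564: ggaacgtgagctgggTttagaccgtcgtga
An overlapping stretch of Lars2, from base 3163 to base 3349, was 80.1% identical over 196 aligned bases to a transcript of AA474408. That alignment had 5 mismatches and 3 gap openings, and gap positions also lower the percentage. A sequence of the mature large-subunit rRNA was not used here, so the likeness of this stretch to that rRNA was not computed.

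The nuclear genes varied several-fold among mice given the same infusion, and their highest levels lay in the pools. Gm42418 was the highest of them. In Control mice it had 847, 469.9, 1428, 644 and 1556 CPM (replicates 1 to 5), and in Vehicle mice 4396, 4344, 544, 1175 and 1631 CPM. Pool 1 mice had 12404, 1511, 1775, 5460.3 and 9609 CPM, and Pool 2 mice had 5317, 2963, 8307, 5322 and 6428 CPM. All 5 Pool 2 mice thus lay above all 5 Control mice, as in 0.770% of the 25190 genes (0.512% for Pool 1). Nothing is read from this, since the same contrast chose the members. In Pool 1, 4 of 5 mice lay above all Control mice, and Pool 1 replicates 2 and 3 lay close to the upper end of the Control mice. Vehicle replicates 1 and 2 were also high and exceeded 2 of the Pool 1 mice and 1 Pool 2 mouse. The means were 989 ± 480.3 CPM in Control, 2418 ± 1823 in Vehicle, 6152 ± 4802 in Pool 1 and 5667 ± 1943 in Pool 2 (SD, n = 5 each).

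Gm26917, the neighbour of Gm42418, had far lower counts and varied with it from mouse to mouse. Control mice had 6.80, 5.04, 8.75, 7.12 and 15.4 CPM, and Vehicle mice had 33.3, 26.02, 7.02, 11.5 and 10.9 CPM. Pool 1 mice had 66.6, 9.41, 12.6, 30.04 and 63.2 CPM, and Pool 2 mice had 28.2, 25.6, 75.3, 30.8 and 49.8 CPM. As for Gm42418, Pool 2 did not overlap Control (0.770% of all genes lay so). Pool 1 replicates 2 and 3 fell within the Control range of Gm26917. The means were 8.62 ± 4.01 CPM in Control, 17.8 ± 11.3 in Vehicle, 36.4 ± 27.2 in Pool 1 and 41.9 ± 20.97 in Pool 2 (SD, n = 5 each).

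Lars2, the protein-coding gene of the set, had 127, 81.9, 172, 95.2 and 235 CPM in Control mice and 565, 499, 93.8, 157 and 235 CPM in Vehicle mice. Pool 1 mice had 1203, 188, 207, 562 and 883 CPM, and Pool 2 mice had 529, 379.9, 1006, 576 and 696 CPM. The mice that were high in Gm42418 were high in Lars2 as well, and again every Pool 2 mouse, as in 0.770% of all genes, and 3 of 5 Pool 1 mice lay above every Control mouse. The means were 142 ± 62.6 CPM in Control, 310.0 ± 210.1 in Vehicle, 609 ± 438 in Pool 1 and 637 ± 235 in Pool 2 (SD, n = 5 each).

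The mitochondrial rRNA genes had high and even levels. mt-Rnr1, of the small subunit, had 4850.2, 5033, 3957, 2838 and 4563 CPM in Control mice and 3327, 3252, 3482, 3305 and 3993 CPM in Vehicle mice. In Pool 1 mice it had 4772, 3807, 3684, 4466 and 3217 CPM, and in Pool 2 mice 5857, 3531, 4167, 3849 and 4444 CPM. All groups overlapped, the lowest value was that of Control replicate 4 and the highest that of Pool 2 replicate 1. The means were 4248 ± 887 CPM in Control, 3472 ± 303 in Vehicle, 3989 ± 625 in Pool 1 and 4369 ± 899 in Pool 2 (SD, n = 5 each).

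mt-Rnr2, of the large subunit, had 6642, 6909, 5932, 4446 and 7257 CPM in Control mice and 5116, 5239, 5238, 5248 and 5706 CPM in Vehicle mice. In Pool 1 mice it had 7449.8, 5728, 5569, 7348 and 4307 CPM, and in Pool 2 mice 8205, 5684, 6245, 6397 and 6795 CPM. Here too all groups overlapped, and Vehicle mice were the most alike, with 5309 ± 228 CPM against 6237 ± 1113 in Control, 6081 ± 1324 in Pool 1 and 6665 ± 948 in Pool 2 (SD, n = 5 each). Between its lowest and highest mouse mt-Rnr2 differed 1.90-fold and mt-Rnr1 2.06-fold, against 26.4-fold for Gm42418, 14.95-fold for Gm26917 and 14.7-fold for Lars2.

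**Figure D2:**
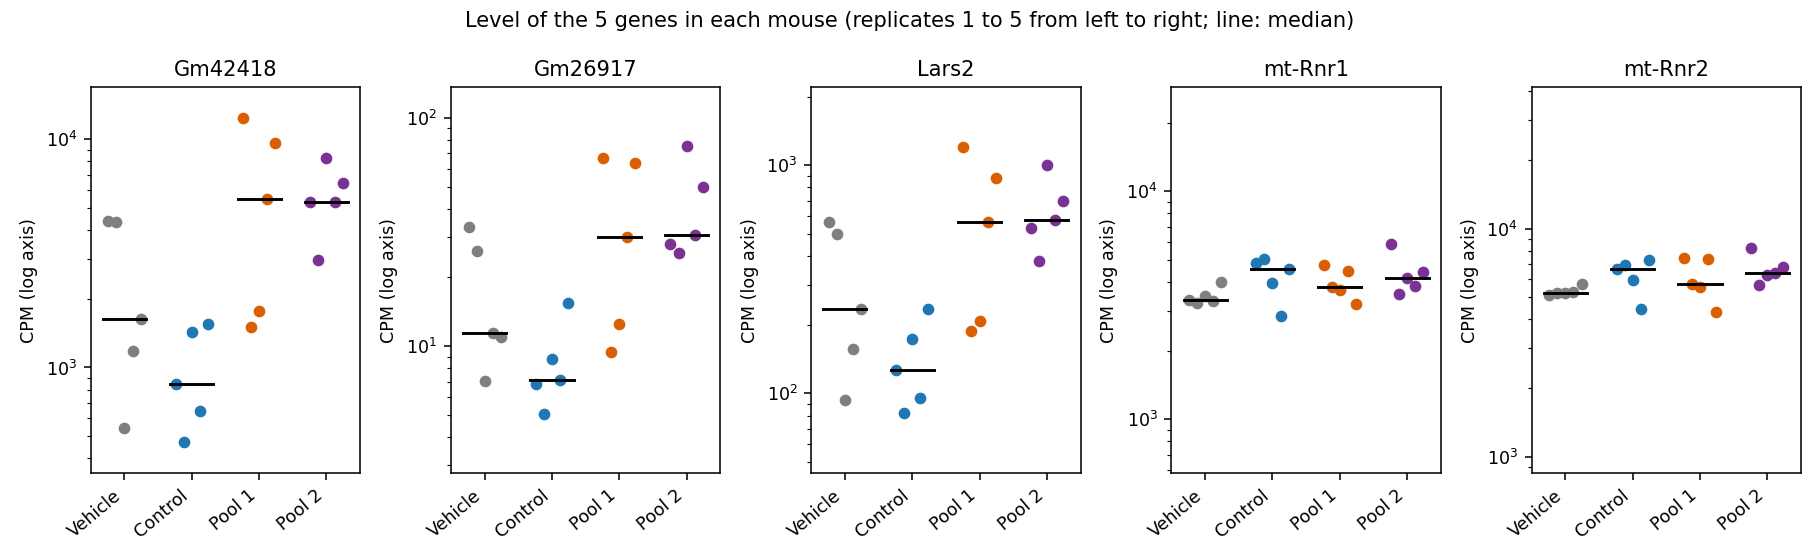
CPM of each gene in each of the 20 mice, on log axes that span the same factor in every panel. Points are mice, in the order of replicates 1 to 5 within a group, and lines are group medians. The 5 Pool 2 mice lie above the 5 Control mice in the 3 nuclear genes, as in 0.770% of all genes, while all groups overlap in mt-Rnr1 and mt-Rnr2.

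The values that chose the members include these group differences, so the fold changes are given as a description without a test. In the edgeR fit of all 20 libraries, Gm42418 had a log2 fold change against Control of 2.64 (SE 0.66) in Pool 1 and 2.52 (SE 0.66) in Pool 2, which is 6.22-fold and 5.73-fold. Gm26917 had 2.08 (SE 0.59) and 2.29 (SE 0.59), and Lars2 had 2.10 (SE 0.57) and 2.16 (SE 0.58). The mitochondrial genes lay near 0, with −0.09 (SE 0.14) in Pool 1 and 0.04 (SE 0.14) in Pool 2 for mt-Rnr1, and −0.04 (SE 0.14) and 0.10 (SE 0.14) for mt-Rnr2. The 2 comparisons share the Control mice, which were the lowest group in the nuclear genes. Against Vehicle, Gm42418 had 1.35 (SE 0.63) in Pool 1 and 1.23 (SE 0.63) in Pool 2, while mt-Rnr1 and mt-Rnr2 had 0.20 to 0.33. Between Control and Vehicle, Gm42418 had −1.29 (SE 0.63), Gm26917 −1.05 (SE 0.58) and Lars2 −1.12 (SE 0.56), with the opposite sign in mt-Rnr1 (0.29, SE 0.14) and mt-Rnr2 (0.23, SE 0.14). Between the pools the nuclear genes differed by −0.12 to 0.20 on the log2 scale, less than their standard errors of 0.55 to 0.62. Without Vehicle replicate 4 and Pool 2 replicate 1, Gm42418 had 2.64 in Pool 1 and 2.54 in Pool 2 against Control, and mt-Rnr1 in Pool 2 had −0.09. In bulk RNA, fewer cells of a type and less RNA per cell cannot be told apart.

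As background, a gene was called when its log2 fold change was 0.3 or more in size and its p before adjustment was below 0.05. By that rule 1.48% of the 25190 genes were higher and 1.99% lower in Pool 1 than in Control. In Pool 2 it called 5.20% higher and 1.01% lower. Between Control and Vehicle it called 1.70% higher and 3.41% lower in Control. In edgeR's quasi-likelihood test 0 genes passed 0.05 after Benjamini-Hochberg adjustment (the smallest were 0.421, 0.390 and 0.734, while 1314, 1939 and 1672 genes had an unadjusted p-value under 0.05), and DESeq2 gave 7, 18 and 0 such genes. All 3 nuclear members were past the fold threshold upwards in both pools, and neither mitochondrial member was past it in either direction. Since these contrasts were used to choose the members, nothing is read from that count. Without Pool 2 replicate 1 the number called higher in Pool 2 was 835 in place of 1311.

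The spread within groups was of another order in the nuclear than in the mitochondrial genes. Gm42418 had a within-group SD of 1.05 on the log2 CPM scale, and 149 of 16664 genes with a mean count of at least 10 had a larger one. The SD was 0.91 in both Lars2 and Gm26917, with 260 and 261 genes above them. mt-Rnr1 (0.25) and mt-Rnr2 (0.24) lay near the median gene (0.22), and 6971 and 7459 genes varied more. The coefficient of variation of Gm42418 was 78.0% in Pool 1, 75.4% in Vehicle, 48.6% in Control and 34.3% in Pool 2, against 4.30% to 21.8% for mt-Rnr2.

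Per kilobase of exon the order of the genes changed. The mitochondrial genes were the highest, with medians of 4087 CPM per kilobase for mt-Rnr1 and 3685 for mt-Rnr2 over the 20 mice, so that by these medians mt-Rnr2, the longer gene, was the lower of the pair per kilobase. Gm42418 had a median of 1294 CPM per kilobase (257 to 6775), and in its highest mouse it exceeded the highest mt-Rnr1 value (6133). Lars2 had 27.7 and Gm26917 6.15 CPM per kilobase. As a share of all counts, the nuclear genes made up 0.0550% (Control replicate 2) to 1.34% (Pool 1 replicate 1) of a library, and the mitochondrial genes 0.732% (Control replicate 4) to 1.43% (Pool 2 replicate 1).

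The 3 nuclear genes tracked each other closely. Over the 20 mice, log2 CPM of Gm42418 correlated with that of Lars2 at Pearson r = 0.99 and Spearman rho = 0.98, and with that of Gm26917 at r = 0.97 and rho = 0.97. Gm26917 and Lars2 had r = 0.98. After subtracting each group's mean, these were still r = 0.99, 0.95 and 0.96, so the relation was also present among mice of the same group. These values are a description without a test, since the points share the libraries and the genes were chosen together.

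The ratio of Gm42418 to Lars2 was steady by comparison with either gene. It ranged from 5.74 to 10.9 over the mice, a 1.90-fold range, while Lars2 alone ranged 14.7-fold. The ratio was lowest where Gm42418 was low, with a median of 6.66 in Control, 7.48 in Vehicle, 9.72 in Pool 1 and 9.24 in Pool 2. A straight line of Lars2 on Gm42418 in CPM had a slope of 9.61 CPM of Lars2 per 100 CPM of Gm42418 and met the axis at 58.7 CPM of Lars2, with a residual SD of 52.7 CPM. The ratio of Gm42418 to Gm26917 was looser, from 77.5 to 189, and the line of Gm26917 met the axis at 2.85 CPM.

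**Figure D3:**
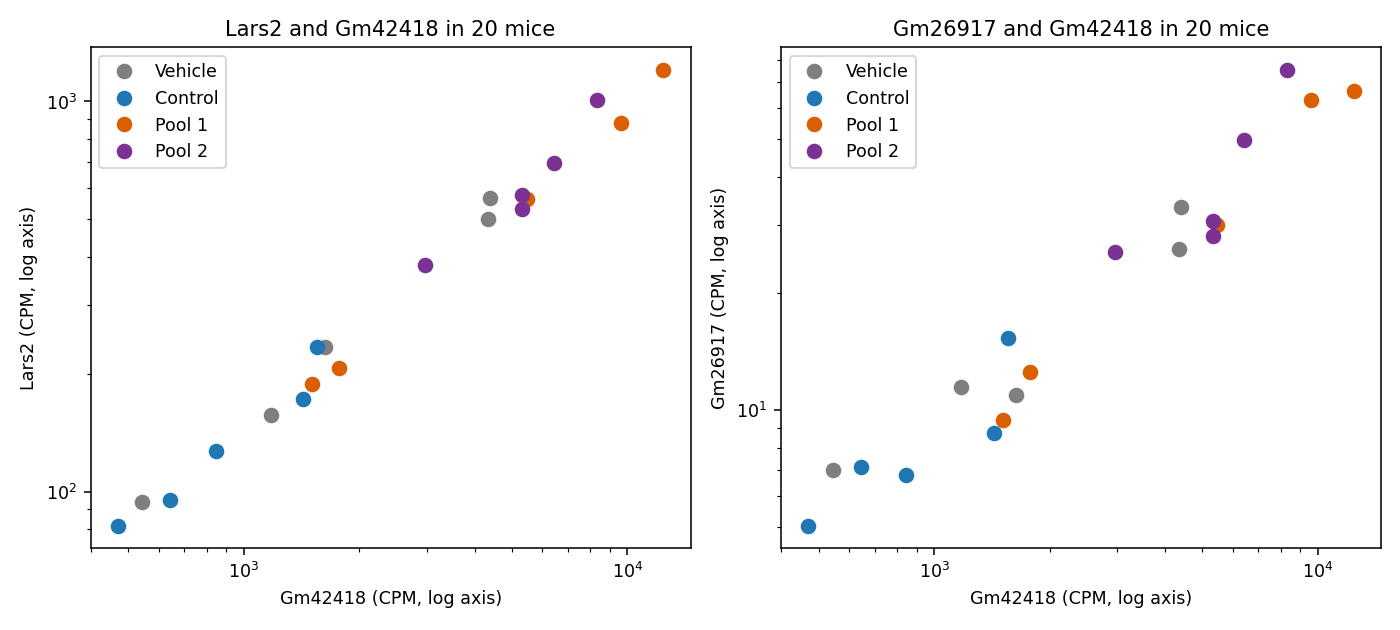
CPM of Lars2 (left) and of Gm26917 (right) against CPM of Gm42418 on log axes, with each point a mouse and the colour its group. Both genes lie along a single band with Gm42418 in all 4 groups, and the band is narrower for Lars2 (r = 0.99) than for Gm26917 (r = 0.97).

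The other mitochondrial aminoacyl-tRNA synthetases, which charge transfer RNAs for mitochondrial translation as Lars2 does, did not vary in this way. The 16 that were measured had median levels of 8.001 CPM (Pars2) to 61.9 CPM (Iars2), below the 308 CPM of Lars2, and ranged 1.30-fold to 2.51-fold between the lowest and the highest mouse. Their median log2 fold change against Control was 0.03 in Pool 1 and 0.01 in Pool 2, beside −0.01 and 0.00 over all genes. With 1 library left out, it was 0.01 to 0.05 in Pool 1 and −0.01 to 0.03 in Pool 2. Of the 16, only Pars2 was called, higher in Pool 1, where 1.48% of all genes were (log2 fold change 0.33, SE 0.14, edgeR unadjusted p = 0.0246, adjusted p = 0.917), and that call was lost without any 1 of Control replicates 2 and 3 or Pool 1 replicates 4 and 5.

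Counting followed the strand. CT010467.1, annotated as an rRNA gene and covering Gm42418 on the other strand, had 275 counts in all libraries together against 1797167 for Gm42418. In a single library it had 0 to 0.371 counts per 1000 counts of Gm42418. Which strand holds the sequence of the mature rRNA was not examined. These counts therefore do not show that rRNA itself was nearly absent. Without regard to strand, a read in Gm42418 would also overlap CT010467.1 and could be assigned to neither.

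The mitochondrial pair moved together as well. mt-Rnr1 and mt-Rnr2 correlated at r = 0.94 and rho = 0.94 over the 20 mice, and at r = 0.93 after subtracting group means. The ratio of mt-Rnr2 to mt-Rnr1 ranged only from 1.34 to 1.66, with group medians of 1.499 (Control) to 1.54 (Vehicle).

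Mouse by mouse, no relation between the nuclear and the mitochondrial genes was detected. The log2 CPM of the summed nuclear genes and of the summed mitochondrial genes had Pearson r = 0.18 (permutation p = 0.436) and Spearman rho = 0.18 (permutation p = 0.452) over 20 mice, in two-sided tests with 100000 resamples. After subtracting group means and permuting within groups, r was 0.13 (permutation p = 0.624) and rho 0.14 (permutation p = 0.570). Without the mice farthest from the median of the nuclear sum, Pool 1 replicate 1 and Control replicate 2, r was 0.22 (permutation p = 0.370) and rho 0.21 (permutation p = 0.403) over 18 mice. Leaving out 1 mouse at a time moved r from 0.06 (without Control replicate 4) to 0.35 (without Pool 1 replicate 5). Of the 6 pairs of a nuclear and a mitochondrial gene, r lay between 0.07 (Gm26917 with mt-Rnr1) and 0.22 (Lars2 with mt-Rnr2), with a Benjamini-Hochberg adjusted permutation p of 0.679 to 0.760. A p-value of this size does not show that the levels were unrelated. The labels give no batch, and the sequencing rounds of a library were already summed.

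The mice at the ends of the 2 orders, picked after their values were seen, are given as examples. Pool 1 replicate 5 was second of the 20 mice in the nuclear sum (10556 CPM) and rank 19 in the mitochondrial sum (7524 CPM). Control replicate 2 was the lowest in the nuclear sum (557 CPM) and rank 3 in the mitochondrial sum (11942 CPM). Pool 1 replicate 1 was high in both, with rank 1 in the nuclear sum (13674 CPM) and rank 2 in the mitochondrial sum (12222 CPM). The nuclear sum exceeded the mitochondrial sum in these Pool 1 mice only, replicates 1 (1.12 times) and 5 (1.40 times). In Control mice it was 0.0466 to 0.163 times the mitochondrial sum, in Vehicle mice 0.0740 to 0.592 times, and in Pool 2 mice 0.366 to 0.902 times.

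**Figure D4:**
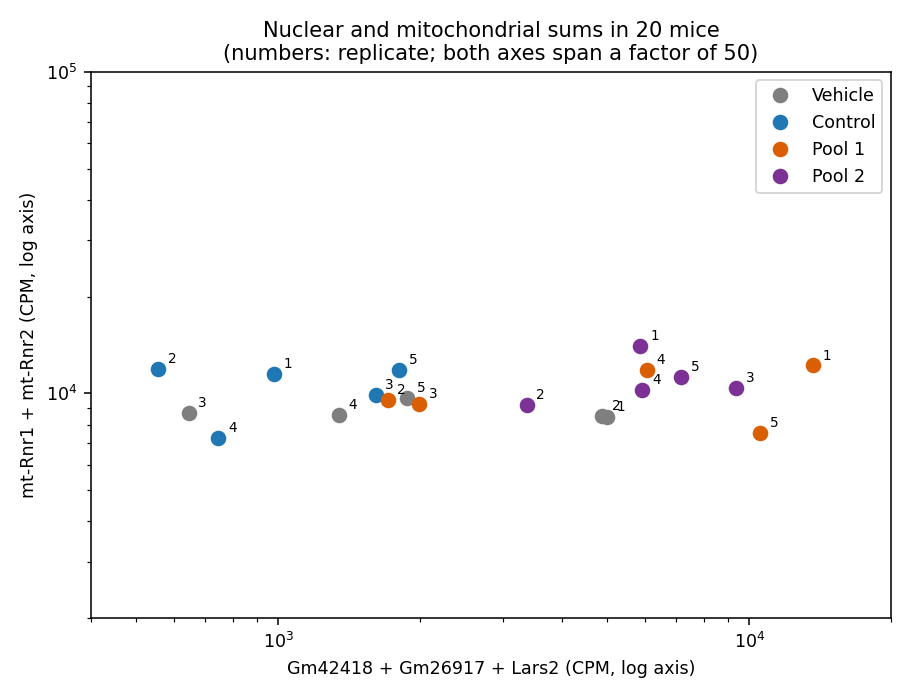
Summed CPM of mt-Rnr1 and mt-Rnr2 against summed CPM of Gm42418, Gm26917 and Lars2 in 20 mice, on log axes that both span a factor of 50, with replicate numbers beside the points and groups by colour. The points spread 24.6-fold along the nuclear axis and 1.93-fold along the mitochondrial axis, with no trend detected (r = 0.18).

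The genes most like Gm42418 over the 20 mice were non-coding RNAs. Of 16659 genes with a mean count of at least 10, the members left out, 6 had a Pearson r of log2 CPM above 0.9 and 12 above 0.8, while the median was 0.00. In order they were Gm24187 (r = 0.99), Gm23935 (0.99), Gm24270 (0.97), Mir6236 (0.94), Gm24245 (0.93), Rn7sk (0.92), Gm15564 (0.87), Gm24265 (0.84), n-R5-8s1 (0.82) and Snord17 (0.82). The first 5 are annotated as microRNA genes, Rn7sk is the RNA that holds back the elongation factor P-TEFb, Gm24265 is annotated as a small nuclear RNA, n-R5-8s1 as an rRNA and Snord17 as a small nucleolar RNA. None of these 10 is protein-coding. Gm15564 is the long non-coding RNA that shares the stretch printed above with Lars2.

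Gm24187, Gm23935, Gm24270 and Gm24245 are near-copies of 57 bases. Gm24270 and Gm24245 have the sequence of Gm23935, so a read wholly inside any of these 3 matches each of them and their counts are uncertain. Gm24187 differs from it by 1 base (capital). In GRCm38 Gm23935 is at chr16:11144125-11144181 on the plus strand and Gm24187 at chr13:9834469-9834525 on the minus strand.
Gm23935: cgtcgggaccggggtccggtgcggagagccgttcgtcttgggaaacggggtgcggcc
Gm24187: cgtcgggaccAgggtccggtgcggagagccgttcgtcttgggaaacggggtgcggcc
Gm23935 had a median of 60.2 CPM over the mice and ranged from 12.2 to 280 CPM, and Gm24187 had a median of 26.05 CPM and ranged from 4.76 to 117 CPM.

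The genes most like mt-Rnr2 were different in kind and less close. The 10 were Cd302 (r = 0.79), Crot (0.77), Wwtr1 (0.74), Ttyh1 (0.73), 2900052N01Rik (0.72), Gm8292 (0.71), Ifnar2 (0.71), Zfp472 (0.71), Mgmt (0.69) and Scg3 (0.69), and 8 of them are protein-coding. No gene reached r = 0.8. Crot encodes a carnitine acyltransferase of peroxisomes, Wwtr1 the transcriptional co-activator TAZ, and Ttyh1 a membrane protein of astrocytes and neural stem cells. Cd302 varied from 8.75 to 16.03 CPM and Ttyh1 from 394 to 604 CPM. The mitochondrial messenger RNAs were not among the 10. mt-Co1 had r = 0.59 with mt-Rnr2, mt-Cytb 0.59, mt-Nd4 0.58, mt-Nd1 0.40, mt-Nd2 0.38 and mt-Nd5 0.30.

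A list of other RNAs without a poly(A) tail was examined beside these genes. Of 5 measured structural RNAs, 4 (Rn7sk, Rny1, Rny3 and Rnu12) were called higher than in Control in Pool 1 and the same 4 in Pool 2, where 1.48% and 5.20% of all genes were. Rnu11, with a mean count of 0.60, was not called (log2 fold change 1.35 in Pool 1 and 0.81 in Pool 2). Earlier results of these libraries were known when the list was chosen, so this is not independent evidence of its direction. Rn7sk had 5.90, 1.31, 5.11, 3.42 and 8.62 CPM in Control mice and 34.5, 41.3, 1.94, 4.69 and 8.15 CPM in Vehicle mice. In Pool 1 mice it had 115, 11.5, 12.4, 48.01 and 19.9 CPM, and in Pool 2 mice 49.8, 22.2, 22.4, 54.8 and 33.7 CPM. Neither pool overlapped Control, as all mice of the pool lay above all Control mice in 0.512% of all genes for Pool 1 and 0.770% for Pool 2, and Vehicle replicates 1 and 2 again stood with the pools.

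The log2 fold change of Rn7sk was 3.10 (SE 0.85, edgeR unadjusted p = 0.00212, adjusted p = 0.917) in Pool 1 and 2.92 (SE 0.85, unadjusted p = 0.00326, adjusted p = 0.479) in Pool 2. It was not a fixed share of the rRNA-like RNA, since Pool 1 replicate 5 had the second highest Gm42418 level and only 19.9 CPM of Rn7sk. Rny1 and Rny3, the RNAs of the Ro ribonucleoprotein, had log2 fold changes of 2.66 and 3.03 in Pool 1 and 2.41 and 2.497 in Pool 2. Rnu12, a spliceosomal RNA, had at most 8 counts in a library, and filters on low counts removed it from the test. None of these calls of Rn7sk, Rny1, Rny3 or Rnu12 in the pools was lost when any 1 of the 20 libraries was left out, and the adjusted p of Rn7sk lay between 0.0531 and 0.999 in Pool 1 and between 0.0586 and 0.8002 in Pool 2 over all alternatives. The 3 with a mean count of at least 10 had a median log2 fold change of 3.03 in Pool 1 and 2.497 in Pool 2, beside −0.01 and 0.00 over all genes. Between Control and Vehicle, Rn7sk (−1.90, SE 0.84, edgeR unadjusted p = 0.0365, adjusted p = 0.739) and Rny3 (−2.19, SE 0.89, unadjusted p = 0.0234, adjusted p = 0.734), 2 of the 5, were called lower in Control, where 3.41% of all genes were. The call of Rn7sk was lost without any 1 of Vehicle replicates 1 and 2 or Control replicates 1 to 4, in the fit of only the compared groups and with the replicate block, and that of Rny3 without any of Vehicle replicate 2 or Control replicates 2 and 4.

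Of the 18 other annotated nuclear rRNA genes, 3 had a mean count of at least 10. n-R5-8s1, annotated as a gene of a small rRNA of the large subunit, had 0.0397 to 0.536 CPM in Control, 0.132 to 2.21 in Vehicle, 0.493 to 4.33 in Pool 1 and 0.875 to 3.09 in Pool 2. It was called higher in Pool 1 (log2 fold change 2.70, SE 0.74, edgeR unadjusted p = 0.00167, adjusted p = 0.917) and in Pool 2 (2.67, SE 0.74, unadjusted p = 0.00184, adjusted p = 0.479), and lower in Control than in Vehicle (−1.88, SE 0.76, unadjusted p = 0.0225, adjusted p = 0.734), the last only with all of Vehicle replicates 1 and 2 and Control replicate 2 in the fit. CT010467.1 was called higher in Pool 1 (2.61, SE 0.86, edgeR unadjusted p = 0.00669, adjusted p = 0.917) and in Pool 2 (2.43, SE 0.86, unadjusted p = 0.0111, adjusted p = 0.507), but not without Pool 1 replicate 1 and Pool 2 replicate 3, respectively. Gm23257, the third, had 0.01 in Pool 1 and −0.58 in Pool 2 and was not called. In all, 4 of the 18 genes were called higher in each pool, beside 1.48% of all genes in Pool 1 and 5.20% in Pool 2, and 2 in each pool under either filter on low counts. The others, all with a mean count under 10 and named after their values were seen, were Gm24601 in both pools, Gm24186 in Pool 1 and n-R5s200 in Pool 2. Gm24186 was not called without Pool 1 replicate 4, nor n-R5s200 without Pool 2 replicate 3, where the number in Pool 2 was 2. With n-R5-8s1 and Gm24601, 2 of the 18 were called lower in Control than in Vehicle, where 3.41% of all genes were, with 1 of the 18 without any 1 of Vehicle replicates 1 and 2 or Control replicate 2, and 3 without any 1 of Vehicle replicate 3, Control replicate 5 or Pool 1 replicate 1. None was called lower in Pool 2, but 1 was without Control replicate 1 and 2 were without Pool 2 replicate 5.

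The genes of nuclear rRNA synthesis and processing are set beside the 1.48% of all genes called higher and 1.99% called lower in Pool 1, 5.20% and 1.01% in Pool 2, and 1.70% and 3.41% in Control against Vehicle. None of the 15 genes of RNA polymerase I and its factors was called in any of the 3 comparisons, although 1 had an unadjusted p-value under 0.05 in each and 1 was called lower in Control than in Vehicle without Vehicle replicate 5. Their median log2 fold change was −0.10 in Pool 1 and −0.04 in Pool 2 against Control, and single genes lay between −0.21 and 0.17 in the pools. With 1 library left out, the median was −0.11 to −0.03 in Pool 1 and −0.08 to −0.03 in Pool 2. Of 40 genes of nuclear rRNA processing, only Nop10, a protein of the pseudouridylation complexes, was called in a pool (−0.32, SE 0.14, edgeR unadjusted p = 0.0311, adjusted p = 0.917, lower in Pool 1), and that call was lost without any 1 of Control replicates 1 and 2 or Pool 1 replicates 1 and 2. None of the 40 was called lower in Pool 2, but 2 were without Control replicate 5 and 1 without either of Control replicate 4 and Pool 2 replicate 3. Nop10 (0.38, edgeR unadjusted p = 0.0111, adjusted p = 0.734) and Nhp2 (0.37, unadjusted p = 0.0112, adjusted p = 0.734), its partner in those complexes, were called higher in Control than in Vehicle. Neither was called without Control replicate 2, nor Nhp2 without Control replicate 1.

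Among the other products of the mitochondrial genome, the messenger RNAs gave no call and the transfer RNAs gave single calls. None of the 13 mitochondrial messenger RNAs was called in any comparison, and none had an unadjusted p-value under 0.05 in edgeR, but 1 was called lower in Control than in Vehicle without Control replicate 3. Of these, 8 had a mean count of at least 10, with a median log2 fold change of −0.03 in Pool 1 and 0.00 in Pool 2. mt-Co1, of cytochrome oxidase, was the highest, at 13233 to 15594 CPM in Control, 12711 to 15328 in Pool 1 and 12749 to 18217 in Pool 2. mt-Co2, mt-Co3, mt-Atp6, mt-Atp8 and mt-Nd4l had at most 10 counts in a library, so the absence of a call says little about them. mt-Nd3, among the 8 above, had a mean count of only 12. Why these counts lay so far below those of mt-Co1 was not tested. Of 11 measured mitochondrial transfer RNAs, mt-Te was called higher in Pool 1, where 1.48% of all genes were higher and 1.99% lower (0.74, SE 0.30, edgeR unadjusted p = 0.0212, adjusted p = 0.917), at 8 to 21 counts, and was not called without Control replicate 5 or without Pool 1 replicate 4. Another, mt-Tc, was called lower in Pool 1 at a mean count of 0.55, but not without any 1 of Control replicates 1, 3 and 5 or Pool 1 replicates 1 and 5, with the replicate block, with only the compared groups or in DESeq2. None was called lower in Control than in Vehicle, but 1 was without any 1 of Vehicle replicate 5, Control replicate 5 or Pool 1 replicate 5.

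Genes that act on mitochondrial RNA showed single calls. Of 29 genes of mitochondrial transcription and RNA processing, 2 were called lower in Pool 1, where 1.99% of all genes were, and 1 in Pool 2, where 1.01% were. None was called between Control and Vehicle, where 22 of the 29 were higher in Control in fitted value, but 4 were called higher in Control without Vehicle replicate 5 and 2 without either of Control replicates 3 and 4, beside 1.70% of all genes with every library in the fit. Mterf1b, a termination factor of mitochondrial transcription, was lower in both (−0.54, SE 0.22, edgeR unadjusted p = 0.0242, adjusted p = 0.917, and −0.48, SE 0.22, unadjusted p = 0.0400, adjusted p = 0.627). Hsd17b10, a subunit of mitochondrial RNase P, was lower in Pool 1 (−0.31, SE 0.12, unadjusted p = 0.0220, adjusted p = 0.917 in edgeR). The call of Mterf1b in Pool 1 was lost without Control replicate 4 or Pool 1 replicate 4, and in Pool 2 without any of Control replicates 2, 4 and 5 or Pool 2 replicates 2 to 5. That of Hsd17b10 was lost without any 1 of Vehicle replicate 1, Control replicates 1 and 2 or Pool 1 replicates 1 and 2. It was also lost with filterByExpr, with only the compared groups and with library sizes taken without the members and mitochondrial genes.

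Of the 77 proteins of the mitochondrial ribosome, which assembles on mt-Rnr1 and mt-Rnr2, 12 were called higher in Control than in Vehicle, which is 15.6% against 1.70% of all genes. Their median log2 fold change was 0.20, beside −0.01 over all genes, and 74 of 77 were above 0. Of the 12, those with the smallest p-values were Mrpl32 (0.30, edgeR unadjusted p = 0.00322), Mrpl41 (0.41, unadjusted p = 0.00582), Mrpl22 (0.37, unadjusted p = 0.00590), Mrps28 (0.44, unadjusted p = 0.00649) and Mrpl36 (0.34, unadjusted p = 0.00775), each with an adjusted p = 0.734. The number called depended on single mice, with 2 without Control replicate 1, 5 without Control replicate 2, 7 without Vehicle replicate 2, 23 without Vehicle replicate 5 and 32 without Control replicate 4. The medians in the pools against Control were −0.12 and −0.13. With 1 library left out, the medians were −0.19 to −0.05 in Pool 1 and −0.22 to −0.06 in Pool 2. Between Control and Vehicle they were 0.13 to 0.27. In each comparison the median was smallest in size without Control replicate 1. Mrpl32 was called lower in both pools than in Control (−0.31 and −0.31), as was Mrpl15 in Pool 1 (−0.31), and none of these calls held without Control replicate 1 or without Control replicate 2. Mrpl32 was also lost in Pool 1 without any 1 of Vehicle replicate 1, Control replicate 5 or Pool 1 replicates 3 and 5, and in Pool 2 without Pool 2 replicate 4 or 5. Mrpl15 was also lost without any 1 of Vehicle replicate 1 or Pool 1 replicates 1 to 3. Both Pool 1 calls ended with filterByExpr, with only the compared groups and with library sizes taken without the members and mitochondrial genes. In Control against Vehicle, Mrpl32 was lost without any 1 of Vehicle replicates 2 to 4 or Control replicates 1, 2 and 5, Mrpl22 without Control replicate 1 or 2 and Mrpl36 without Vehicle replicate 2 or Control replicate 1, whereas the calls of Mrpl41 and Mrps28 were lost in none of the 20 fits that left out 1 library. The number called lower in Pool 1 was 2, beside 1.99% of all genes, but 12 without Control replicate 4 and 7 without Pool 1 replicate 5, and in Pool 2 it was 1, beside 1.01% of all genes, but 5 without Control replicate 4. In Control mice Mrpl32 had 20.6 ± 1.75 CPM, against 16.7 ± 2.23 in Vehicle, 16.6 ± 1.03 in Pool 1 and 16.6 ± 1.02 in Pool 2 (SD, n = 5 each).

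**Figure D5:**
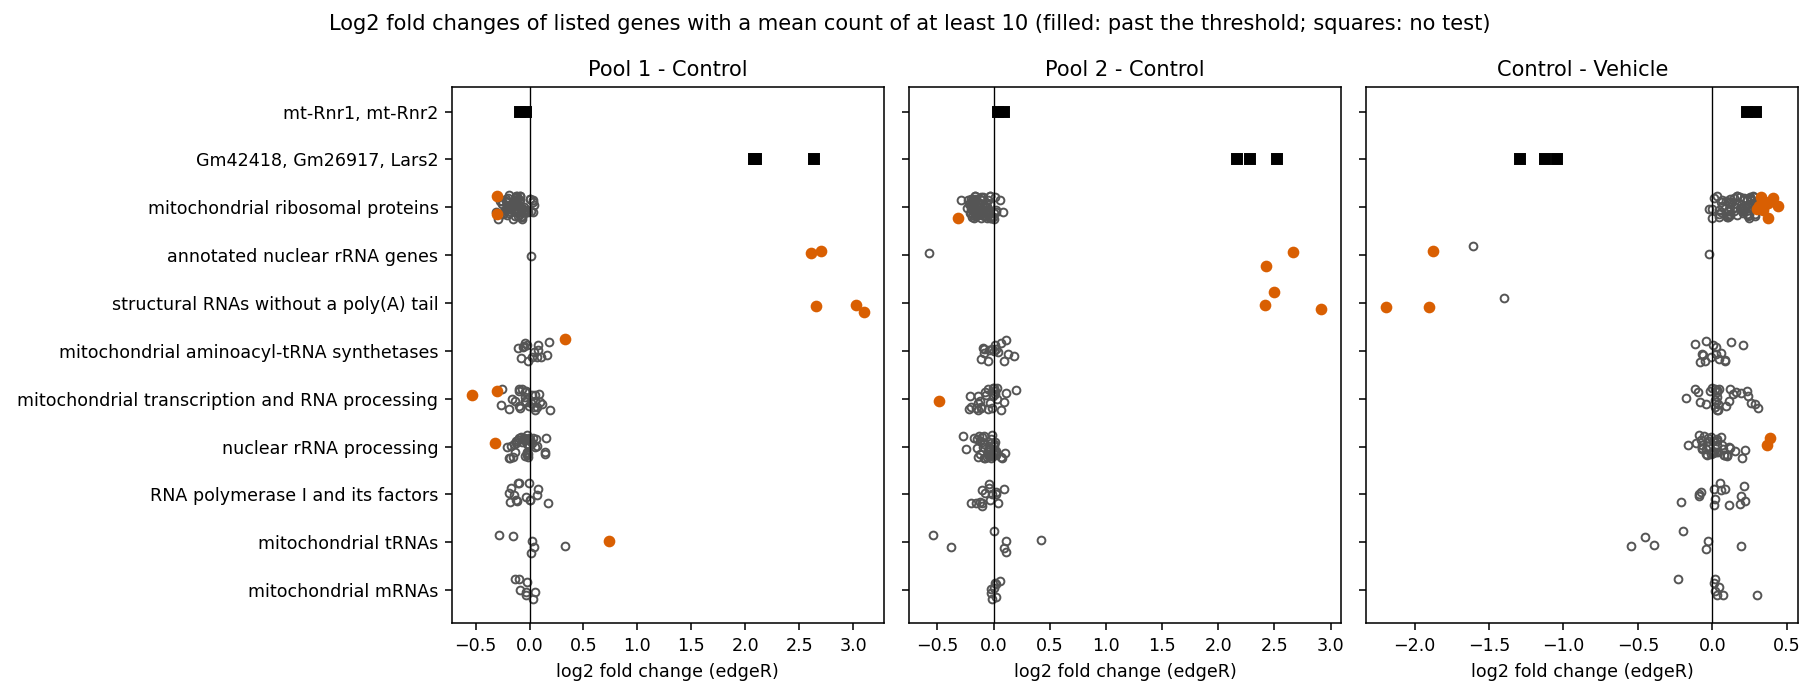
Log2 fold changes from edgeR in the 3 comparisons (horizontal axis) for genes of each list with a mean count of at least 10, with filled orange points for genes past the threshold and open points for the others. Black squares are the 5 genes described here, which were not tested. In the pools the squares of Gm42418, Gm26917 and Lars2 (2.08 to 2.64) stand beside the structural RNAs and 2 of the rRNA genes, and those of mt-Rnr1 and mt-Rnr2 (−0.09 to 0.10) beside the mitochondrial messenger RNAs.

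All 43 marker genes of 9 cell types and neighbouring regions were detected in every library. Summed markers of CA1 pyramidal neurons (549 to 1167 CPM) and dentate granule cells (191 to 674 CPM) were present throughout, as fits the labelled hippocampus. Pool 2 replicate 1, the highest library in mt-Rnr1 and mt-Rnr2, was also the highest in summed markers of astrocytes (2596 CPM, against 1084 to 1653 in Vehicle, Control and Pool 1), microglia (529 CPM against 217 to 294) and blood (182 CPM against 34.8 to 82.7). Choroid plexus markers ranged from 206 to 8980 CPM in Vehicle, 114 to 2287 in Control, 105 to 294 in Pool 1 and 92.1 to 1489 in Pool 2. Thalamus markers reached 408 CPM in Pool 2 against 181 in Control, 124 in Vehicle and 105 in Pool 1, and leptomeninges markers 89.8 CPM against 34.2, 46.9 and 54.4, both in Pool 2 replicate 4. Vehicle replicate 4 was the highest library in choroid plexus markers and had 1175 CPM of Gm42418, rank 16 of the 20 mice in the nuclear sum. The part of these cell types in the levels of the rRNA genes was not tested.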

How the data were processed

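Poly(A)-selected, stranded libraries of 20 mice (5 per group, assigned by the sample labels) were analysed. The authors aligned the reads to GRCm38 (mm10) with STAR, counted reads per gene with GENCODE release 20, left out genes with a summed count under 10 and deposited raw, unscaled counts for 25190 genes. FastQC 0.11.5 is named in the submitters' processing notes. GENCODE release 21 gave transcripts, sequences and positions, and held 97.7% of the identifiers.

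Counts were scaled by TMM to CPM and fitted with edgeR 4.0.16 in R 4.3.3 (glmQLFit with robust estimation, glmQLFTest), in 1 fit of 4 groups without a further filter, with Benjamini-Hochberg adjustment over all genes. A call needed a log2 fold change of 0.3 or more in size and p below 0.05 before adjustment. Correlations used log2 CPM with a prior count of 2 and 100000 permutations. The fit was also run on simulated counts, and no value from that run is given here.

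The members and the gene lists were chosen with earlier results of these data known. Named were the 5 members, the genes called in each list (the 5 with the smallest p-values where more were called, and for the transfer RNA and rRNA lists those with a mean count of at least 10), and the 10 genes most correlated with Gm42418 and with mt-Rnr2 among genes with a mean count of at least 10. mt-Tc, Gm24601, Gm24186, n-R5s200, AA474408 and single mitochondrial messenger RNAs were named after their values were seen. Alternatives were DESeq2 1.42.0, its size factors in edgeR, filters on low counts, the default estimate of the spread, a fit of the groups compared alone, a block for the replicate number, library sizes without the members and mitochondrial genes, and leaving out libraries. Each library is labelled as a separate sample, and p-values measure the spread between these libraries.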

Additional observations from a re-analysis of the deposited data

Results flagged for a closer look

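In Vehicle mice, 1 mouse stood apart in mt-Rnr2 and in the sum of the mitochondrial rRNA genes, but was not marked in mt-Rnr1 alone. Vehicle replicate 5 had 5706 CPM of mt-Rnr2, while the other 4 Vehicle mice lay between 5116 and 5248 CPM. The gap to the nearest mouse was 0.777 of the range of the group, above Dixon's 95% critical value of 0.71 for 5 samples. For the sum of mt-Rnr1 and mt-Rnr2 the same mouse had 9699 CPM against 8443 to 8721 CPM, a gap of 0.779 of the range. Both values are within the ranges of the other groups. The measure was applied to 12 quantities in 4 groups, 48 in all, and chance alone marks about 1 in 20.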

How the results depend on the processing

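In the pools against Control and in Control against Vehicle, the fold changes of Gm42418, Gm26917 and Lars2 kept their signs under all alternatives run. Over the 9 alternatives that keep every library or drop a fixed pair, the log2 fold change against Control of Gm42418 ranged from 2.47 to 2.65 in Pool 1 and from 2.495 to 2.57 in Pool 2, and leaving out 1 library gave 2.21 to 2.89 and 2.34 to 2.74. Leaving out 1 library gave −0.21 to −0.02 in Pool 1 and −0.09 to 0.11 in Pool 2 for mt-Rnr1, and −0.14 to 0.06 and −0.02 to 0.16 for mt-Rnr2. The number of genes called moved with filters on low counts, which leave fewer genes to test. With filterByExpr it was 175 higher and 248 lower in Pool 1, 787 higher in Pool 2 and 483 lower in Control than in Vehicle. With normalized counts averaging 10 or more it was 155 higher and 247 lower in Pool 1, 852 higher and 117 lower in Pool 2, and 239 higher and 556 lower in Control than in Vehicle. Without Vehicle replicate 4 and Pool 2 replicate 1 it was 852 higher in Pool 2. Leaving out 1 library gave 313 to 481 higher and 397 to 768 (without Control replicate 4) lower in Pool 1, 835 (without Pool 2 replicate 1) to 1436 higher and 226 to 496 (without Control replicate 4) lower in Pool 2, and 259 (without Control replicate 2) to 793 (without Control replicate 4) higher and 659 to 1123 lower in Control than in Vehicle, where it was also 266 higher without Control replicate 1 and 704 without Vehicle replicate 5. The correlation of the nuclear with the mitochondrial sum ranged from 0.06 to 0.35 when 1 mouse was left out, and within single groups of 5 mice it was −0.27 in Vehicle, 0.18 in Control, 0.19 in Pool 1 and 0.32 in Pool 2, without a test. The causes were not tested. With the replicate block, 317 genes were higher and 442 lower in Pool 1, 1190 and 220 in Pool 2, and Gm42418 had 2.47 and 2.57. The numbers were not taken to pair the mice, since neither the labels nor the paper state a pairing. In each comparison at least 1 same-numbered pair deviated in opposite directions. Only same-numbered pairs were compared, so this check cannot decide whether the numbers pair the mice. The correlations were −0.30 to 0.20 in Pool 1 and −0.32 to 0.01 in Control against Vehicle. In Pool 2 they were 0.13 to 0.26 in 4 pairs and −0.24 for replicate 2. Of the called genes of the lists, the block ended the calls of Nop10 and mt-Tc in Pool 1 and of Rn7sk and Mrps33 between Control and Vehicle. The lowest level of the 5 genes, 5.04 CPM, is above the floor of 3 counts, while the low counts of several mitochondrial messenger RNAs and of most annotated rRNA genes limit the precision of their fold changes.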
